A study of Homo sapiens with 6 samples.

Results

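The DNA replication machinery was examined in C4-2 cells, a human line of castration-resistant prostate cancer that descends from LNCaP, without and with induction of an active form of the transcriptional coactivator YAP1. The set holds 49 genes chosen by name for their role in copying DNA, of 26819 genes listed in the expression table. It spans origin recognition (ORC1 to ORC6), licensing (CDC6, CDT1, GMNN), the MCM hexamer (MCM2 to MCM7), helicase activation (MCM10, CDC45, GINS1 to GINS4), the polymerases, the clamp and its loader, single-strand binding, Okazaki fragment maturation, nucleotide supply, chromatin assembly and the regulator E2F1. All 49 were found once in the table, and all 49 passed the filter on low values (at least 1 TPM in at least 3 libraries), as did 14833 genes in total. Both groups carried the Tet-O-YAP5SA construct, in which a doxycycline-responsive promoter drives a YAP1 mutant that LATS kinases cannot restrain, and both grew in RPMI-1640 with 10% serum. The 3 Ctrl libraries came from cells without doxycycline, and the 3 Dox libraries from cells given doxycycline for 24 hours at 0.2 mg/ml, a dose repeated here as the labels print it and in a unit that was not checked. The labels do not say whether the line is a single clone or whether the replicates were separate cultures, so a p-value here sets the difference against variation among the 3 libraries of a group, which may be technical only. Cells without the construct that received doxycycline were not analysed here, and an effect of the drug and an effect of YAP1 cannot be told apart.

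Replication is licensed in G1, when the origin recognition complex, CDC6 and CDT1 load MCM hexamers onto origins, and geminin (GMNN) blocks CDT1 afterwards so that each origin fires once per cycle. In S phase CDC45 and the GINS complex join the MCM ring to form the active helicase, polymerase alpha-primase lays down primers, and polymerases epsilon and delta extend the leading and lagging strands with the PCNA clamp, which the RFC complex loads. Many of these genes are transcribed at the entry into S phase under E2F transcription factors, and their RNA is often read as a measure of how many cells are dividing.

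The values are levels in TPM, which divide the reads of a gene by its length and scale each library to the same total. Reads recovered from them came to between 24914226 and 29207519 per library over the tested genes, and the replication genes had between 182 (GINS3) and 11196 (RRM1) reads in a library. YAP1 rose from 56.8 ± 3.72 to 269 ± 6.92 TPM (SD, n = 3), 4.74-fold, and its target genes CTGF and CYR61 rose 1139-fold and 221-fold. The fold of CTGF is imprecise, since its Ctrl level was 0.35 ± 0.14 TPM, with as few as 4 reads in a library. The prostate luminal markers KLK3 (3297 ± 69.6 and 1795 ± 17.1 TPM), FOLH1 and KRT18 were abundant in both groups. The basal markers KRT5 and TP63 and the neuroendocrine marker CHGA stayed under 0.05 TPM in every library. Another basal marker, KRT14, was low but present, at 1.48 ± 0.17 TPM in Ctrl and 1.44 ± 0.29 TPM in Dox. The neuroendocrine marker SYP was at 0.90 ± 0.25 TPM in Ctrl and 0.90 ± 0.04 TPM in Dox. Libraries of the same group differed beyond sampling of reads, with a chi-square between 2.55 and 4.99 per gene, and each was kept as its own sample.

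Most of the replication machinery moved little when YAP1 was induced. Of the 49 genes, 15 rose and 7 fell, and the other 27 passed in neither direction (limma on log2(TPM + 1), adjusted p under 0.05 over all 14833 tested genes). Among all tested genes 53.7% were called, 35.9% higher and 17.8% lower, and the corresponding shares of the replication genes were 44.9%, 30.6% and 14.3%. In the middle of the set stood a log2 fold change of 0.08 (median), beside 0.10 for all tested genes. Their middle 50% lay between -0.06 and 0.19 on the log2 scale, against -0.12 and 0.33 for all tested genes. CDT1 and POLA2, 2 of the 49 (4.1%), moved by 0.5 or more on the log2 scale, which 19.9% of all tested genes did. For 27 of the 49 (55.1%) every Dox library lay on the same side of every Ctrl library, 17 above and 10 below. That share was 61.9% among all tested genes, 40.8% above and 21.1% below. The summed level of the 49 genes was 4226 ± 122 TPM in Ctrl and 4319 ± 95.1 TPM in Dox. After median-ratio rescaling of the libraries it was 4377 ± 77.2 and 4145 ± 58.6 TPM, so its direction depends on the scaling. In bulk RNA, a change in the number of cells in S phase and a change in RNA per cell cannot be told apart.

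**Figure D1:**
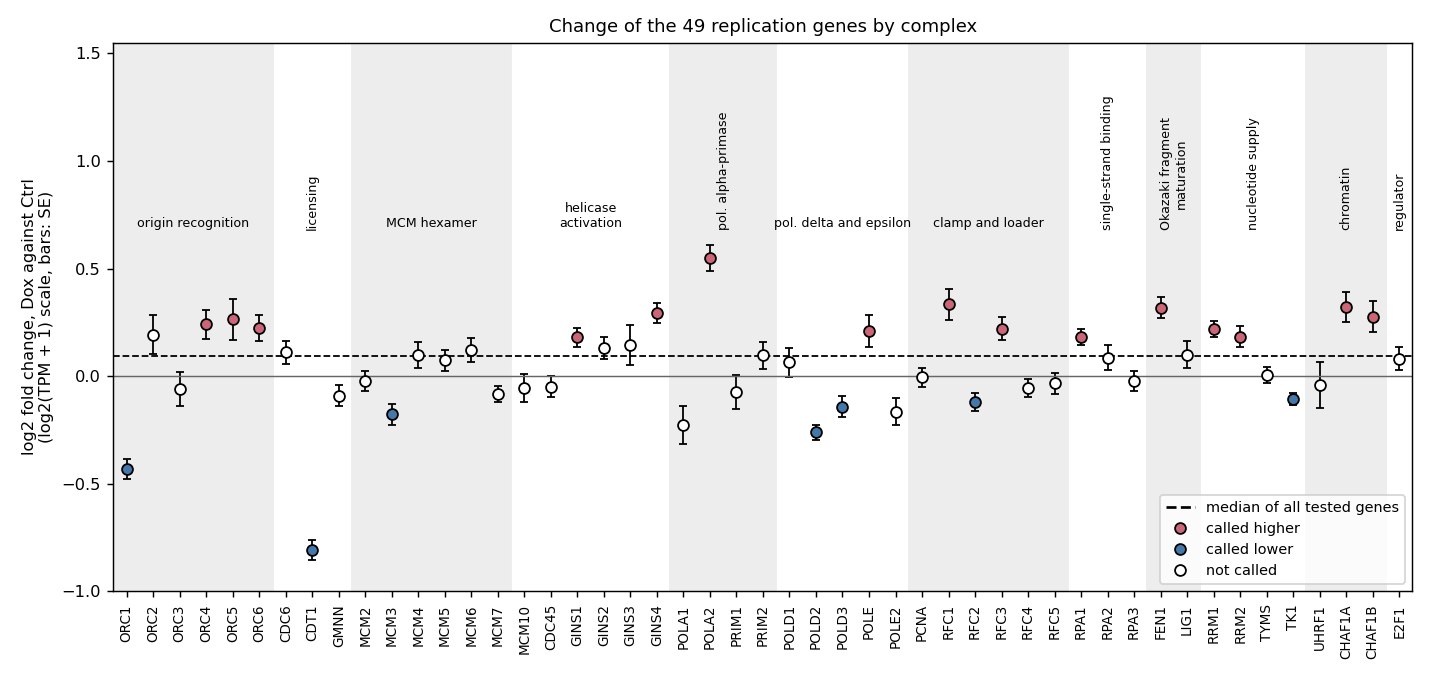
Log2 fold change of each of the 49 replication genes (vertical axis, log2(TPM + 1) scale, Dox against Ctrl, bars are SE) by complex. CDT1 at -0.81 and ORC1 at -0.43 lie lowest and POLA2 at 0.55 highest, and most of the others lie close to the dashed median of all tested genes at 0.10.

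**Figure D2:**
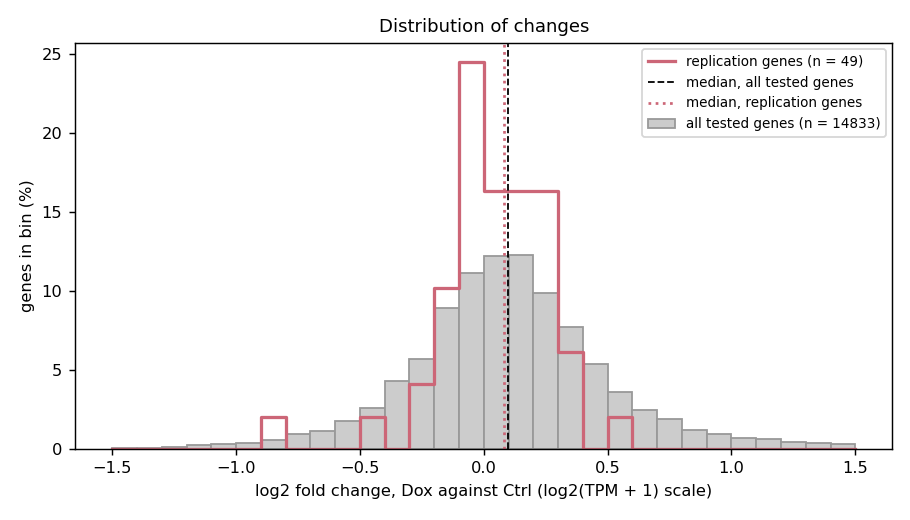
Share of genes (percent) in bins of 0.1 log2 fold change for all 14833 tested genes (grey bars) and the 49 replication genes (line). The 1.9% of tested genes beyond 1.5 in size are not drawn, and the medians, 0.08 and 0.10, lie next to each other.

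The strongest change in the set was the fall of a licensing factor. CDT1 (ENSG00000167513.4), which brings the MCM hexamer to origins, was at 38.6, 40.1 and 37.2 TPM in the Ctrl libraries and at 21.1, 21.5 and 22.3 TPM in the Dox libraries. The groups are far apart, and the 3 libraries of each lie within a few TPM of each other. CDT1 was 1.79-fold lower in Dox, with a log2 fold change of -0.81 ± 0.05 (SE, limma adjusted p = 5.6e-06). Its partners in licensing had smaller changes, which did not pass the test on the deposited scale. CDC6, the ATPase that works with CDT1, was at 100.1, 105.6 and 93.9 TPM in Ctrl and 114, 106.4 and 103 TPM in Dox, with groups that overlap (log2 fold change 0.11 ± 0.05, limma adjusted p = 0.13). GMNN, the inhibitor of CDT1, was at 58.2, 58.6 and 59.9 TPM in Ctrl and 56.6, 57.6 and 51.6 TPM in Dox. Every Dox library is below every Ctrl library, but the difference is small (log2 fold change -0.09 ± 0.05) and did not pass the test (limma adjusted p = 0.15). After median-ratio rescaling of the libraries GMNN was called lower, at -0.20 (limma adjusted p = 0.0066). Within a library, where scaling has no part, the level of CDT1 relative to that of GMNN was 0.663, 0.685 and 0.622 in Ctrl and 0.373, 0.372 and 0.432 in Dox. Relative to CDC6 it went from 0.387 ± 0.009 to 0.201 ± 0.015 (SD, n = 3). CDT1 was called lower in each of the 16 alternative analyses.

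The 6 subunits of the origin recognition complex, the platform on which licensing takes place, were divided. ORC1 (ENSG00000085840.8), the ATPase subunit whose level varies over the cell cycle, was at 41.2, 41.2 and 42.1 TPM in Ctrl and fell to 30.6, 32.1 and 28.9 TPM in Dox. No Dox library comes near the Ctrl range, and the log2 fold change was -0.43 ± 0.05 (limma adjusted p = 0.0002). By TPM it is also the highest of the 6, since ORC2 to ORC6 lay between 10.2 ± 0.424 (ORC4) and 14.6 ± 0.597 TPM (ORC5) in Ctrl. That order depends on the length used. The exons of ORC4 cover 8915 bases in GENCODE 29 and those of ORC1 3157. Recovered reads in a library were 791 to 951 for ORC4 and 723 to 1165 for ORC1. Among ORC2 to ORC6, ORC4, ORC5 and ORC6 rose and ORC2 and ORC3 did not pass the test. In all 3 of the 6 genes rose and 1 fell, where 35.9% of all tested genes rose and 17.8% fell. With 6 genes the shares cannot be compared closely. ORC6 was at 13.1, 14.4 and 14.5 TPM in Ctrl and 17.2, 16.3 and 16.1 TPM in Dox. ORC4 was at 9.78, 10.6 and 10.3 TPM in Ctrl and 13.3, 11.6 and 11.99 TPM in Dox. ORC5 went from 14.0, 15.1 and 14.9 to 20.1, 18.4 and 15.2 TPM, with the third Dox library just above the Ctrl range. The calls of these 3 small rises, 0.24, 0.26 and 0.22 on the log2 scale for ORC4, ORC5 and ORC6, end after median-ratio rescaling of the libraries (limma adjusted p = 0.087, 0.16 and 0.072). That of ORC4 also ends without Ctrl replicate 1 or Dox replicate 1 (limma adjusted p = 0.058 each), and that of ORC5 without any 1 library other than Dox replicate 3 (0.078 to 0.14).

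**Figure D3:**
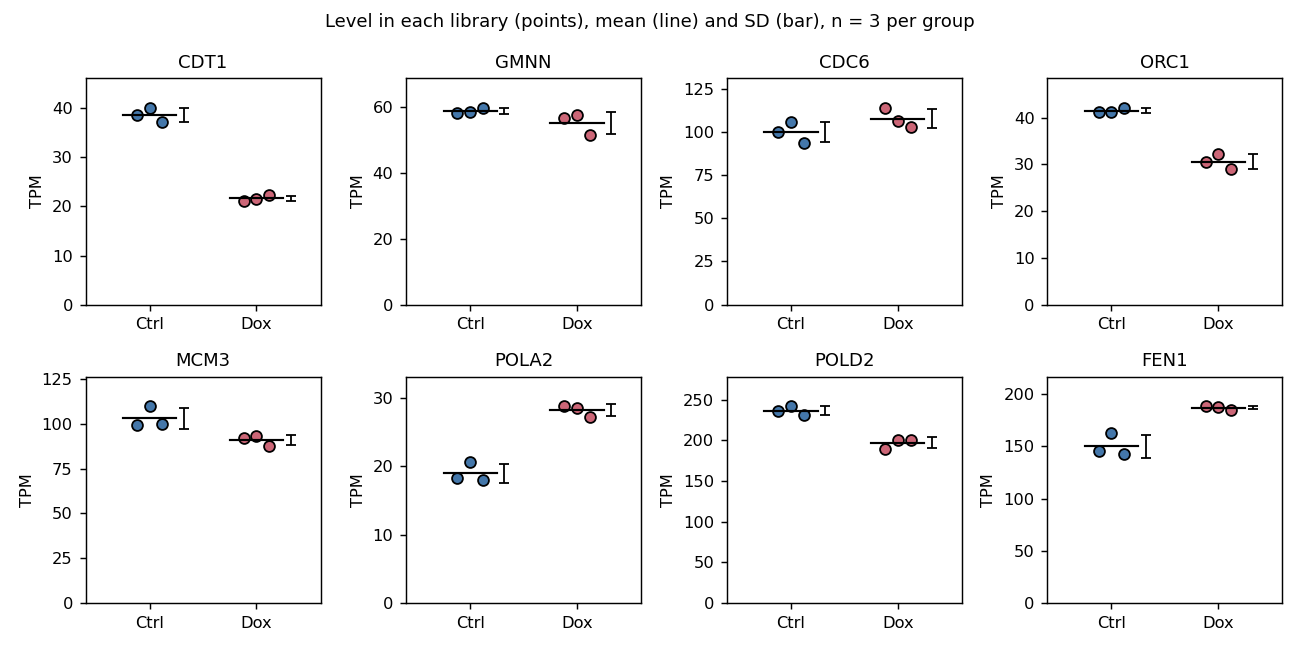
Level in TPM (vertical axes, starting at 0) of 8 replication genes in each library of the Ctrl and Dox groups, with the group mean (line) and SD (bar, n = 3). The groups are apart for CDT1, ORC1, MCM3, POLA2, POLD2 and FEN1, overlap for CDC6 and lie close together for GMNN.

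Promoter sequences were compared because E2F factors are known regulators of this gene set. Promoters of 43 of the 49 genes were matched by symbol in the RefSeq promoter table (GRCh38.p14, 250 bases before to 50 after the first start listed for a gene). An E2F-type word (TTTGGCGC, TTTCCCGC, TTTGCCGC or TTTCGCGC, on either strand) was found in 20 of the 43 (46.5%), against 3.33% of all 27305 promoters and 5.43% of 9137 promoters of tested genes. The words were held by 4 of 14 promoters of genes that rose, 2 of 6 of genes that fell and 14 of 23 of genes that did not pass the test. The shorter word TTGGCG, which is also part of TTTGGCGC and was chosen after the promoters were seen, stood in 46.5% of the 43. It was found in 14.1% of promoters of tested genes and in 9.04% of all promoters. CCAAT stood in 58.1% of the 43, in 37.3% of promoters of tested genes and in 35.7% of all promoters. GGAATG, a word of the TEAD factors that carry YAP1 on DNA, was found in 5 of the 43 (11.6%). It stood in 10.8% of promoters of tested genes and in 14.0% of all promoters. By outcome, GGAATG was held by 4 of 14 promoters of genes that rose, 0 of 6 of genes that fell and 1 of 23 of the others. These counts are small, and a link with outcome was not tested. A match is a run of letters and not a bound site. The 200 bases before the start are shown for a gene that fell, a gene that rose and a pair that did not pass the test, 5′ to 3′ on the strand of the gene, with E2F-type words and TTGGCG in capitals. CDT1 lies at chr16:88803589-88803788, plus strand, CHAF1A at chr19:4402440-4402639, plus strand, MCM6 at chr2:135876444-135876643, minus strand and E2F1 at chr20:33686386-33686585, minus strand.
CDT1: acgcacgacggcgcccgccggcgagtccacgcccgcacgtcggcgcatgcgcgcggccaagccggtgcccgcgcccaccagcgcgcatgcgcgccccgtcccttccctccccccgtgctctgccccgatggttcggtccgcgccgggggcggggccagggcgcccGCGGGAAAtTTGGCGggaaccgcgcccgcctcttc
CHAF1A: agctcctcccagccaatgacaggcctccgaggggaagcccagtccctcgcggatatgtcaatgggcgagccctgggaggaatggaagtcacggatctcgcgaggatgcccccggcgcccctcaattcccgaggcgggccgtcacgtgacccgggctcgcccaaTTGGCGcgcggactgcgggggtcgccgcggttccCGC
MCM6: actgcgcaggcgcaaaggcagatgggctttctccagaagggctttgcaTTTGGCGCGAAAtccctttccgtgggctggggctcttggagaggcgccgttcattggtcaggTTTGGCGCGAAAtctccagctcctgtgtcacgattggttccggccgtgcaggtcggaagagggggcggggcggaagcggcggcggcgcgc
E2F1: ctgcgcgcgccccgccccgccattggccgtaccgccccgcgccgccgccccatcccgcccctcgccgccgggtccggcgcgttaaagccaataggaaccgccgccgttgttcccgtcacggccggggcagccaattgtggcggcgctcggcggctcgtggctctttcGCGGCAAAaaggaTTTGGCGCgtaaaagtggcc
CDT1, which fell, holds TTTCCCGC on the opposite strand with its first base at position -35 and TTGGCG at -26, counted from the gene start. MCM6, which did not pass the test, holds 4 overlapping E2F-type matches in 2 clusters. CHAF1A, which rose, holds TTGGCG at -37 and no E2F-type word. It also holds TTGGCG on the opposite strand from -3 to 3, which the end of the printed stretch cuts. Genes of each outcome thus carry an E2F-type word or TTGGCG near their start.

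The MCM hexamer, the core of the replicative helicase, stayed close to its Ctrl level on the deposited scale. Only 1 of its 6 genes passed the test (16.7%, against 53.7% of all tested genes). Their summed level was 567 ± 29.1 TPM in Ctrl and 555 ± 15.7 TPM in Dox. After median-ratio rescaling of the libraries the sum was lower in Dox, at 587 ± 17.5 TPM in Ctrl and 533 ± 9.38 TPM in Dox. MCM3 was the member that fell, from 99.3, 109.8 and 100.01 TPM to 92.2, 92.9 and 87.7 TPM (log2 fold change -0.18 ± 0.05, limma adjusted p = 0.016). Its Dox libraries all lie below its Ctrl libraries, and the call was kept in each of the 16 alternatives. MCM7, the most abundant subunit, was at 171, 178 and 169 TPM in Ctrl and 159.5, 169.6 and 160.3 TPM in Dox, with groups that overlap (limma adjusted p = 0.10). MCM2, MCM4, MCM5 and MCM6 had log2 fold changes between -0.02 and 0.12. After median-ratio rescaling MCM2 and MCM7 were called lower as well, at -0.13 and -0.19.

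Among the factors that turn the loaded hexamer into a moving helicase, 2 of 6 rose and none of the 6 fell. The rises were 33.3% of these genes, against 35.9% of all tested genes, of which 17.8% fell. GINS4, a subunit of the tetrameric GINS complex, was at 20.5, 20.9 and 19.9 TPM in Ctrl and 26.1, 25.3 and 24.5 TPM in Dox. The groups are clearly apart (log2 fold change 0.29 ± 0.05, limma adjusted p = 0.0013). GINS1 rose from 59.8, 61.5 and 62.1 to 73.5, 68.0 and 67.0 TPM (log2 fold change 0.18 ± 0.04, limma adjusted p = 0.011). GINS2 and GINS3 had positive changes of 0.13 and 0.15 that did not pass the test, and CDC45 and MCM10 both had -0.05. After median-ratio rescaling GINS4 stayed higher (0.19), GINS1 was no longer called (limma adjusted p = 0.18), and CDC45 and MCM10 were called lower, at -0.16 each. In GENCODE 29, 23.6% of the exon bases of GINS4 lie opposite genes of the other strand, and no source used here says whether the counting used strand.

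The priming complex showed its subunits apart from each other. POLA2, the regulatory subunit of polymerase alpha, was at 18.3, 20.6 and 18.1 TPM in Ctrl and rose to 28.8, 28.6 and 27.2 TPM in Dox. This 1.49-fold rise is the largest in the set (log2 fold change 0.55 ± 0.06, limma adjusted p = 0.00018), and its call was kept in each of the 16 alternatives. POLA1, the catalytic subunit, was at 13.5, 16.2 and 12.9 TPM in Ctrl and 12.7, 11.8 and 11.4 TPM in Dox. Its groups do not overlap but it did not pass the test (log2 fold change -0.22 ± 0.09, limma adjusted p = 0.064), and it was called lower after median-ratio rescaling (-0.33). The level of POLA2 relative to POLA1 within a library was 1.35, 1.27 and 1.40 in Ctrl and 2.27, 2.42 and 2.38 in Dox. The primase subunits PRIM1 (39.9, 44.0 and 43.5 TPM in Ctrl, 45.5, 38.8 and 37.1 TPM in Dox) and PRIM2 did not pass the test. In GENCODE 29, 35.1% of the exon bases of POLA2 belong also to AP000944.2 on the same strand, so part of its reads may be assigned differently in another annotation.

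Polymerases delta and epsilon held 2 genes that fell, 1 that rose and 2 that did not pass the test. In all 60.0% were called, against 53.7% of all tested genes. POLD2, the accessory subunit that ties the polymerase delta holoenzyme together, was the most abundant of them. It fell from 236, 242 and 231 TPM to 189.6, 200.7 and 200.9 TPM (log2 fold change -0.26 ± 0.04, limma adjusted p = 0.00054), with a wide gap between the groups. POLD3, another accessory subunit, went from 31.3, 28.8 and 29.6 to 27.7, 27.1 and 26.1 TPM (log2 fold change -0.14 ± 0.05, limma adjusted p = 0.039). POLE, the catalytic subunit of the leading-strand polymerase, was among the lowest of the set by TPM. It went from 5.06, 5.64 and 5.10 to 5.95, 6.30 and 6.49 TPM (log2 fold change 0.21 ± 0.07, limma adjusted p = 0.043). POLD1, the catalytic subunit of polymerase delta, had a log2 fold change of 0.06 ± 0.07, and POLE2 one of -0.16 ± 0.06 that did not pass (limma adjusted p = 0.055). The call of POLD3 ends without Ctrl replicate 1 or 3 or Dox replicate 2 or 3 (limma adjusted p = 0.087 to 0.12), and that of POLE without any 1 library other than Ctrl replicate 2 (0.057 to 0.13).

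At the sliding clamp, PCNA was at nearly the same level in both groups, while the subunits of its loader moved in both directions. PCNA was at 401, 434 and 401 TPM in Ctrl and 429.9, 406 and 395 TPM in Dox (log2 fold change -0.01 ± 0.04, limma adjusted p = 0.93). RFC1, the large subunit of the loader, rose from 57.0, 69.1 and 57.7 to 77.0, 78.0 and 76.6 TPM (log2 fold change 0.33 ± 0.07, limma adjusted p = 0.0053). RFC3 rose from 81.3, 85.8 and 81.9 to 97.7, 103.8 and 89.7 TPM. Both have Dox libraries entirely above the Ctrl libraries, and RFC1 has one Ctrl library that stands above the other two. RFC2 fell slightly, from 166, 168 and 161 to 159.7, 149.6 and 145.8 TPM (log2 fold change -0.12 ± 0.04, limma adjusted p = 0.039), and RFC4 and RFC5 had -0.05 and -0.03. The call of RFC2 ends without any 1 library other than Dox replicate 1 (limma adjusted p = 0.056 to 0.11), and that of RFC3 ends after median-ratio rescaling (0.076).

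RPA, the trimer that coats single-stranded DNA, had 1 subunit that rose. RPA1, the large DNA-binding subunit, was at 205, 214 and 201 TPM in Ctrl and 239.5, 236 and 228 TPM in Dox (log2 fold change 0.18 ± 0.04, limma adjusted p = 0.0034). RPA2 (0.09) and RPA3 (-0.02) did not pass. Of the enzymes that finish Okazaki fragments, the flap nuclease FEN1 rose and the ligase LIG1 did not pass the test (0.10 ± 0.06). FEN1 was at 145.6, 162.6 and 142.3 TPM in Ctrl and at 188.5, 188.1 and 185.2 TPM in Dox, so that the Dox libraries lie close together above all Ctrl libraries (log2 fold change 0.32 ± 0.05, limma adjusted p = 0.0013). The call of FEN1 was kept in each of the 16 alternatives, and that of RPA1 ends after median-ratio rescaling (limma adjusted p = 0.092).

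Nucleotide supply held the most abundant transcript of the set, and 3 of its 4 genes had small called changes, 2 higher and 1 lower. Of all tested genes 53.7% were called, and with 4 genes the shares cannot be compared closely. The subunits of ribonucleotide reductase, which makes deoxynucleotides, rose together. RRM1 was at 275, 277 and 267 TPM in Ctrl and 329, 322 and 305 TPM in Dox (log2 fold change 0.22 ± 0.04, limma adjusted p = 0.0016). RRM2 was at 204, 215 and 205 TPM in Ctrl and 248.6, 239.8 and 221 TPM in Dox (log2 fold change 0.18 ± 0.05, limma adjusted p = 0.014). Neither gene has overlapping groups, and the level of RRM2 relative to RRM1 was 0.761 ± 0.019 in Ctrl and 0.742 ± 0.016 in Dox (SD, n = 3). TK1, the thymidine kinase of the salvage route and the highest transcript of the 49, fell from 505, 489 and 487 to 451, 458.5 and 465 TPM (log2 fold change -0.11 ± 0.03, limma adjusted p = 0.014). TYMS, which makes thymidylate, had 0.01 ± 0.04 (limma adjusted p = 0.88). In GENCODE 29, 46.6% of the exon bases of TYMS overlap ENOSF1 or TYMSOS on the opposite strand, and 20.2% of those of RRM2 belong also to AC007240.1 on its own strand. After median-ratio rescaling the rise of RRM2 was not called (limma adjusted p = 0.17), and without Ctrl replicate 1 the fall of TK1 was not called (0.055).

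Of the 3 genes that restore chromatin behind the fork 2 rose (66.7%), where 35.9% of all tested genes did. With 3 genes the shares cannot be compared closely. CHAF1A and CHAF1B, the large and middle subunits of the histone chaperone CAF-1, rose by similar amounts. CHAF1A was at 27.2, 31.4 and 29.4 TPM in Ctrl and 34.02, 38.8 and 37.7 TPM in Dox (log2 fold change 0.32 ± 0.07, limma adjusted p = 0.0055). CHAF1B was at 20.4, 23.8 and 20.6 TPM in Ctrl and 27.5, 26.7 and 24.8 TPM in Dox (log2 fold change 0.28 ± 0.07, limma adjusted p = 0.013). Neither gene has a Dox library inside its Ctrl range. UHRF1, which guides maintenance methylation, was low in both groups (7.97 ± 0.575 and 7.75 ± 1.13 TPM). E2F1, the transcription factor that drives many of these genes, was at 126, 143 and 128 TPM in Ctrl and 135, 142 and 143 TPM in Dox, with groups that overlap (log2 fold change 0.08 ± 0.05, limma adjusted p = 0.23).

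Levels differed far more between the 49 genes than between the groups. In Ctrl they ranged from 4.69 ± 0.520 TPM for GINS3 to 494 ± 9.74 TPM for TK1. TK1, PCNA (412 ± 19.2 TPM), RRM1 (273 ± 5.74 TPM), POLD2 (236 ± 5.40 TPM) and RRM2 (208 ± 6.49 TPM) were the highest, and RPA1 (206 ± 6.65 TPM) did not differ from RRM2 beyond the spread of the libraries. Subunits that assemble in equal number did not have equal RNA levels per length. In Ctrl the MCM subunits ran from 29.4 ± 1.35 TPM for MCM5 to 173 ± 4.72 TPM for MCM7. The RFC subunits ran from 61.3 ± 6.76 TPM for RFC1 to 165 ± 3.59 TPM for RFC2. Of polymerase epsilon, POLE was at 5.27 ± 0.324 TPM and POLE2 at 12.2 ± 0.639 TPM. The polymerase delta genes of the set ran from 21.8 ± 1.19 TPM for POLD1 to 236 TPM for POLD2. By summed level the polymerases delta and epsilon went from 305 ± 6.18 to 264 ± 7.12 TPM. Origin recognition was at 102 ± 2.84 and 100.2 ± 4.55 TPM, and the clamp and its loader were at 889 ± 35.9 and 899 ± 34.6 TPM. After median-ratio rescaling the polymerases delta and epsilon were at 316 ± 8.59 and 253 ± 8.51 TPM. Origin recognition was then at 105.9 ± 0.332 and 96.2 ± 3.51 TPM, and the clamp and its loader at 921 ± 20.1 and 863 ± 26.8 TPM.

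**Figure D4:**
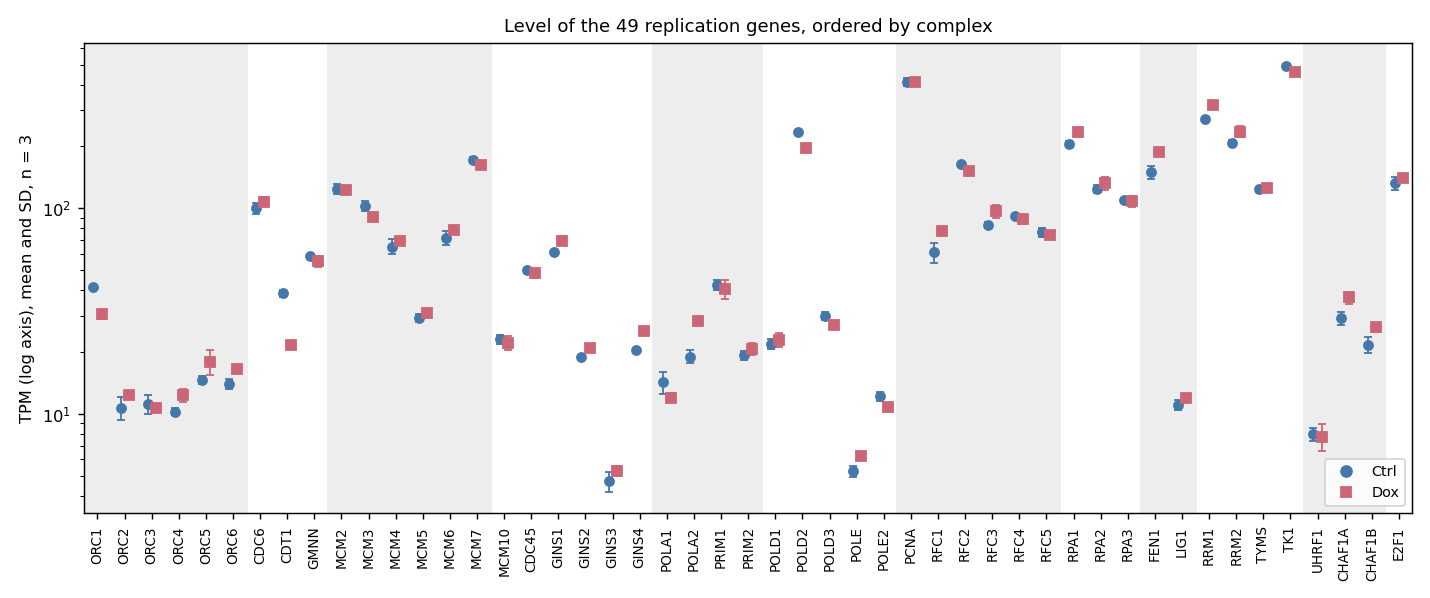
Mean level (TPM, log axis, SD bars, n = 3) of the 49 replication genes in Ctrl (circles) and Dox (squares), ordered by complex. Levels span from 4.69 TPM for GINS3 to 494 TPM for TK1 in Ctrl, while the pair of symbols of a gene lies close together for nearly all genes.

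The direction of the calls depended on how the libraries were scaled to each other. The shift of all tested genes (median) was 0.10 on the deposited log2 scale and 0.00 after median-ratio rescaling, so that changes of this size are read against that shift. After rescaling, 7 replication genes were called higher and 17 lower (of all tested genes, 26.7% and 26.6%, 53.3% in all), and the median of the 49 was -0.03. Of the genes called on the deposited scale, 7 of 15 rises and 7 of 7 falls kept their call. The rescaling lowers Dox against Ctrl, with size factors of 0.94 to 0.99 for Ctrl libraries and 1.03 to 1.05 for Dox libraries. It therefore deepens falls and shrinks rises, and the kept falls are no separate support for them. The 7 rises that kept their call were those of GINS4, POLA2, RFC1, FEN1, RRM1, CHAF1A and CHAF1B. The 10 genes called lower only after rescaling were GMNN, MCM2, MCM7, MCM10, CDC45, POLA1, POLE2, PCNA, RFC4 and RFC5. After quantile normalization 7 were called higher and 15 lower, where 23.8% and 29.3% of all tested genes were called, 53.2% in all. Relative to the median of all tested genes on the deposited scale, CDT1 stood at -0.90, ORC1 at -0.53, POLD2 at -0.36 and POLA2 at 0.45. The 8 genes called in the same direction in each of the 16 alternatives were ORC1, CDT1, MCM3 and POLD2 (lower) and GINS4, POLA2, FEN1 and CHAF1A (higher). The share of all tested genes called in each of the 16 was not counted, so 8 of 49 cannot be read as many or few.

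**Figure D5:**
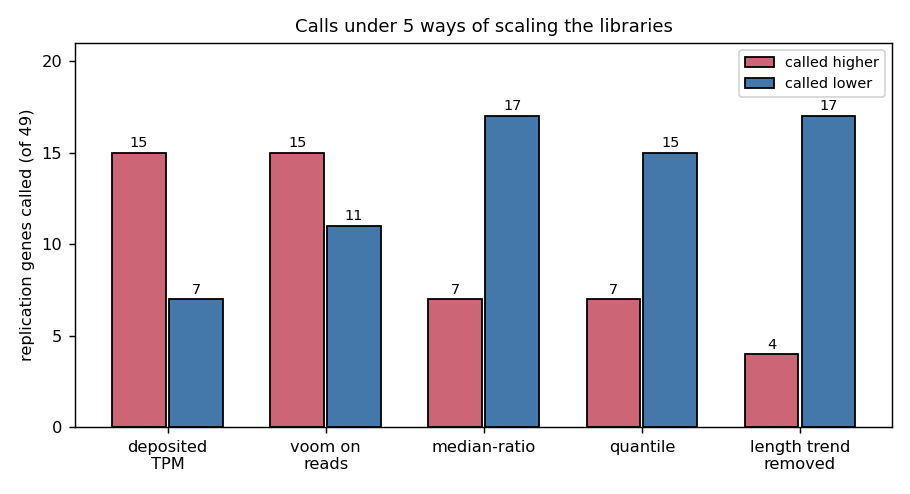
Number of the 49 replication genes called higher (red) and lower (blue) in Dox at a limma adjusted p under 0.05, for 5 ways of scaling the libraries. The deposited TPM gave 15 and 7, and median-ratio rescaling gave 7 and 17.

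Other genes that serve replication but are outside the 49 were taken as a list of 62, all of them tested. On that list 22 genes rose, 12 fell and 28 passed in neither direction, with a median log2 fold change of 0.10. The called share was 54.8%, beside 53.7% of all tested genes. Its largest rises on the log2(TPM + 1) scale were of genes of the ubiquitin ligases that destroy CDT1 in S phase. By ratio of mean TPM the low transcript ATAD5 rose more, 2.36-fold. DDB1, the adaptor of the CUL4 ligase, was at 53.8, 55.6 and 54.1 TPM in Ctrl and 125, 129 and 122 TPM in Dox, 2.30-fold higher (log2 fold change 1.19 ± 0.04, limma adjusted p = 2.3e-07). SKP2, the receptor of the SCF ligase, was at 37.7, 47.9 and 44.9 TPM in Ctrl and 96.1, 88.4 and 79.6 TPM in Dox, 2.02-fold higher. The other components on the list moved the opposite way. DTL, the receptor that brings CDT1 to the CUL4 ligase, fell from 48.9 ± 1.49 to 36.7 ± 2.79 TPM, and the scaffold CUL4A from 45.5 ± 2.60 to 37.0 ± 0.732 TPM. All 4 genes of that class were called, 2 higher and 2 lower, also after median-ratio rescaling, where 53.7% of all tested genes were called as deposited.

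Further rises on that list were those of ATAD5, SLBP, TIPIN and RBL1. ATAD5, which unloads PCNA, rose from 2.09 ± 0.374 to 4.92 ± 0.492 TPM (log2 fold change 0.94 ± 0.12). SLBP, which binds the stem-loop of histone messenger RNA in S phase, rose 1.66-fold, from 168, 168 and 166 TPM to 288, 279.5 and 264 TPM (log2 fold change 0.73 ± 0.04, limma adjusted p = 3.2e-06). The rises of the fork protein TIPIN (0.37 ± 0.14) and of RBL1, a relative of RB1 (0.36 ± 0.12), were not called after median-ratio rescaling (limma adjusted p = 0.13 and 0.075). Both calls also end without Ctrl replicate 1, Ctrl replicate 3, Dox replicate 1 or Dox replicate 2, with limma adjusted p = 0.064 to 0.15 for TIPIN and 0.074 to 0.10 for RBL1. The largest falls were those of NME1, E2F2, TICRR, DTL, DBF4 and CUL4A. NME1, a nucleoside diphosphate kinase, fell 1.69-fold to 149 ± 8.15 TPM, but it shares sequence with its paralog NME2, so its reads may be split. E2F2, an activator E2F, went from 9.05 ± 1.34 to 5.52 ± 0.233 TPM (log2 fold change -0.62 ± 0.10, limma adjusted p = 0.0014). TICRR (12.8 ± 0.769 to 9.14 ± 0.263 TPM), which is needed for origin firing, and DBF4 (34.4 ± 2.00 to 26.1 ± 1.24 TPM), the activating subunit of the CDC7 kinase, fell, while CDC7 itself had a log2 fold change of -0.01 ± 0.07. In the E2F and RB class 4 of 12 rose (33.3%) and 2 fell (16.7%), close to the 35.9% and 17.8% of all tested genes. E2F4 and RB1 were among those that rose (0.30 ± 0.07 and 0.29 ± 0.07). Without Ctrl replicate 3 or Dox replicate 2, 14 of the 62 genes were called higher in place of 22.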

How the data were processed

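RNA from C4-2 cells with Tet-O-YAP5SA was prepared with a stranded mRNA kit, per the labels' protocols. Per the submitters' processing notes, FastQC 0.11.2, STAR 2.5.3a, featureCounts and edgeR were used with build hg19. Neither the annotation release nor a strand setting of the counting is given in the sources used here. The authors deposited TPM values, 1 per gene and library. Groups and replicate numbers come from the sample titles.

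The members and lists were chosen with earlier results of these data known. Genes that reached 1 TPM in 3 or more libraries entered limma 3.58.1 (R 4.3.3) on log2(TPM + 1), with a mean-variance trend, two-sided, Benjamini-Hochberg adjusted, threshold 0.05, without a replicate block. This log2 scale understates what low genes do, and fold values without "log2" are ratios of mean TPM. Whole reads were recovered as TPM times length over a constant per library (tolerance 0.01 reads): 9115 of 14833 genes, 30 of the 49 replication genes among them, came out whole with the GENCODE 29 exon length and the others with a searched length. The fit and the recovery were tested on simulated data. The fit called 18% of 1.2-fold, 60% of 1.5-fold, 80% of 2-fold and 92% of 4-fold changes, with 50 genes at each size. A gene that did not pass may thus have changed by a small amount. Far fewer genes were changed in the simulation than were called here, so these shares do not carry over directly. A list is described by counts and medians, with no test of the list. Values per library are given for called replication genes and the most abundant gene of each complex, and for other pathway genes up to 6 per direction are named by size of change. GENCODE 29 (GRCh38) served for lengths and overlaps and RefSeq for promoters. Figures were drawn with matplotlib 3.10.9.

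Alternatives were quantile normalization, median-ratio rescaling, a fit without mitochondrially encoded genes, a pseudocount of 0.1, no filter or a mean level of 5 TPM or more, no variance trend, the replicate number as a block, and each library left out in turn. Voom on recovered reads and a loess correction (span 0.3) of the trend with gene length were added after the data were seen, as were the promoter words other than the E2F-type ones and the level ratios other than CDT1 to GMNN and RRM2 to RRM1.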

Additional observations from a re-analysis of the deposited data

How the results depend on the processing

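Calls of replication genes depended on the scaling of the libraries: 15 higher and 7 lower as deposited, 7 and 17 with median-ratio rescaling, 7 and 15 with quantile normalization, 4 and 17 with the length trend removed, and 15 and 11 with voom on recovered reads. Other pathway genes moved from 22 higher and 12 lower to 13 and 21, 10 and 23, 10 and 25 under the first 3 of these alternatives, with 19 lower under voom. All tested genes moved from 5319 higher and 2640 lower to 3536 and 4348 after quantile normalization and 3381 and 4720 with the length trend removed. The median change of the replication genes, 0.08, became -0.028, -0.060 and -0.085, and that of all tested genes, 0.10, became -0.00088, -0.036 and -0.046, and 0.067 under voom. The difference of these medians, -0.02, was 0.047 without a filter. With the length trend removed MCM5 had -0.13 and was called, and POLE had -0.11 and was not. The cause was not tested.

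Leaving out each library gave 12 to 18 higher and 5 to 7 lower replication genes, 14 to 25 and 8 to 11 other pathway genes, and 4445 to 5278 and 2204 to 2417 of all tested genes, with medians of 0.06 to 0.11 for the replication genes and 0.08 to 0.11 for all tested genes. Replicate numbers did not pair the samples: same-numbered libraries had deviations correlated at -0.009, 0.063 and 0.003, and not every library correlated best with its own number. With the replicate block 13 replication genes were called higher and 7 lower, the calls of ORC5 and POLE being lost.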
